A study of Mus musculus with 24 samples.

Results

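The effect of OX40L-JAG1 treatment on conventional CD4 T cells (Tconv) was taken as the difference between 3 libraries of sorted Tconv cells from treated mice and 3 libraries of the same subset from control mice. These are 6 of the 24 libraries of the series, chosen by their labels alone, and every gene of the count table that passed the low-count filter was tested. All mice were female NZBWF1/j, F1 hybrids prone to spontaneous lupus, so both groups shared that background. Treated mice received recombinant mouse OX40L at 2 mg/kg together with mouse JAG1 at 2 mg/kg into the peritoneum, once a week for 3 weeks from 23 weeks of age. Control mice were of the same age and sex and received PBS. Cells were collected at week 26, and Tconv cells were sorted as negative for CXCR5 and GITR. Total RNA was depleted of ribosomal RNA before sequencing. Neither protein was given alone to any mouse of these groups, so the effects of OX40L and JAG1 cannot be told apart. Nothing in the labels ties the 3 libraries of a group to different mice, and the p-values therefore reflect spread among libraries that may be technical. That spread was estimated over all 24 libraries of the series and not from these 6 alone.

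OX40 (Tnfrsf4) is a costimulatory receptor that activated T cells put on their surface, and OX40L (Tnfsf4) on antigen-presenting cells signals through it to NF-kB and to survival pathways. JAG1 is a ligand of the Notch receptors, whose cleaved intracellular part moves to the nucleus and, with RBPJ, turns on target genes such as Hes1 and Dtx1. Tconv cells are the helper population that on activation leaves the resting state and makes cytokines, and that in lupus-prone strains helps B cells to make autoantibodies.

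Expression is given in CPM, counts relative to the scaled library size, for libraries 1, 2 and 3 of each group. Log2 fold changes (log2FC) are treated over control with their standard error (SE), and a gene was called at an adjusted p under 0.05 in edgeR's quasi-likelihood test. CPM compares 1 gene between libraries and not the levels of different genes.

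Treated Tconv libraries held 37252888 to 43934593 counts, against 24698544 to 33185433 counts in control Tconv libraries. T cell markers were high in both groups. Summed over 11 T cell markers, expression was 6408, 6098 and 6031 CPM in treated libraries, against 2965, 2935 and 3694 CPM in control libraries. Tnfrsf18, which encodes GITR, was at 34.2, 30.5 and 31.5 CPM in treated and 66.2, 61.4 and 85.4 CPM in control libraries, and Foxp3, the regulatory T cell factor, at 12.8, 12.1 and 10.7 CPM in treated and 6.8, 6.32 and 4.31 CPM in control libraries. For other blood cells, the 12 markers of CD8 T and NK cells summed to 25.8 to 27.1 CPM in treated and 17.5 to 27.5 CPM in control libraries, and 17 myeloid markers to 8.04 to 8.88 CPM in treated and 9.19 to 12 CPM in control libraries. The 20 B cell markers summed to 401, 381 and 393 CPM in treated and 221, 222 and 201 CPM in control libraries, of which Ighm, described below with the plasma cell markers, made up 260.3 to 281 CPM in treated and 79.7 to 91.1 CPM in control libraries. The other markers made up the rest of the sums in both groups. Ms4a1 and Pax5 reached at most 0.535 CPM, the value of Pax5 in control library 2, so markers not named here carried most of that rest. Of 19 tested B cell markers 6 had a log2FC above 0 and 13 below 0. In bulk RNA, fewer cells of a type and less RNA per cell cannot be told apart.

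Kidney transcripts set control libraries 1 and 2 apart from the other 4 Tconv libraries. The 13 podocyte markers, genes of the kidney's filtration cells, summed to 12.6, 16.2 and 14.6 CPM in treated libraries and to 1583, 1583 and 17.4 CPM in control libraries. For 17 proximal tubule markers the sums were 1.46, 1.42 and 1.53 CPM in treated and 787, 783 and 1.08 CPM in control libraries. Control library 3 therefore served as a second yardstick. A call was said to hold when all 3 treated values lay on the same side of control library 3 and their mean differed from it by at least 1.5-fold, after adding 0.5 CPM to both. Mitochondrially encoded genes took 2.29, 2.66 and 2.43% of the counts in treated libraries, against 9.5, 10.1 and 11.3% in control libraries, and that difference goes along with treatment in all results below. Its part in them was not tested, and treatment cannot be told apart from any shared handling of a group's libraries.

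**Figure D1:**
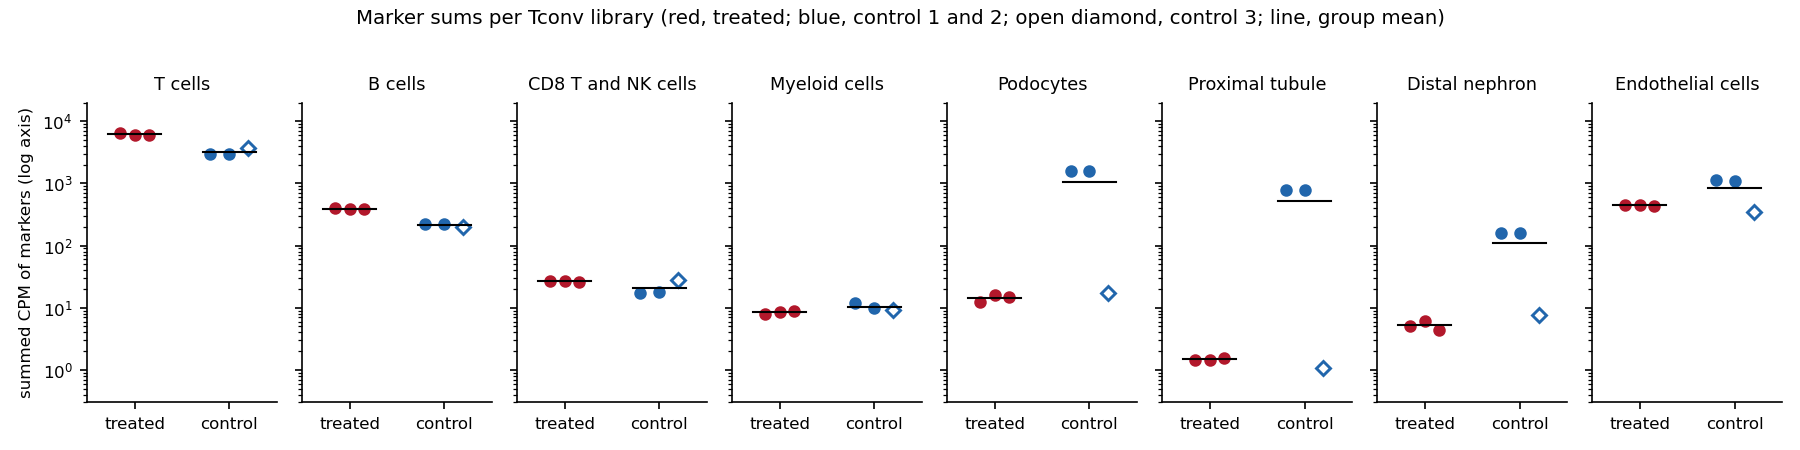
Summed CPM of marker genes (log axis) in the 6 Tconv libraries, with treated libraries in red at the left of each panel, control libraries 1 and 2 as blue points, control library 3 as an open diamond, and the group mean as a line. Podocyte markers reach 1583 CPM in control libraries 1 and 2, against 17.4 CPM in control library 3 and 12.6 to 16.2 CPM in treated libraries.

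Of 18789 genes tested, 1294 (6.89%) were higher and 574 (3.05%) were lower in treated Tconv cells, 9.94% in all. These shares, 6.89% higher and 3.05% lower, are the background for every count of list members given below. Among the 1294 higher genes, 750 (3.99% of the genes tested) held against control library 3. Of the 574 lower genes 282 (1.5%) held. Higher genes made up 69.3% of the calls, against 58.7% with relative log expression scaling (1062 higher and 746 lower), which moved the median of all genes to -0.08, and 46.3% with DESeq2. Groups did not overlap for 27.5% of genes in the direction of treated above control and for 15.4% in the opposite one. The median log2FC of all tested genes was 0.02. Of the 750 genes that held, 664 averaged at least 10 CPM in treated libraries, and 29 had no read in any control library. Among lower genes that did not hold, 158 of 292 had a mean in control libraries 1 and 2 of at least 4 times the value of control library 3. Kidney genes also passed the rule where they were close to 0 in control library 3. Tjp1, a tight junction protein, had 0, 0.119 and 0.139 CPM in treated and 292, 279 and 1.27 CPM in control libraries. A narrower set of 210 lower genes, chosen after the values were seen, therefore also asked for 10 CPM in control library 3 and a mean of control libraries 1 and 2 at most 2 times that value. Some of its members, not all of them the largest, are described below. Without the 5 libraries of the series that hold kidney transcripts, which leaves 1 control Tconv library assumed to vary like the other groups, 440 genes were higher and 136 lower.

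**Figure D2:**
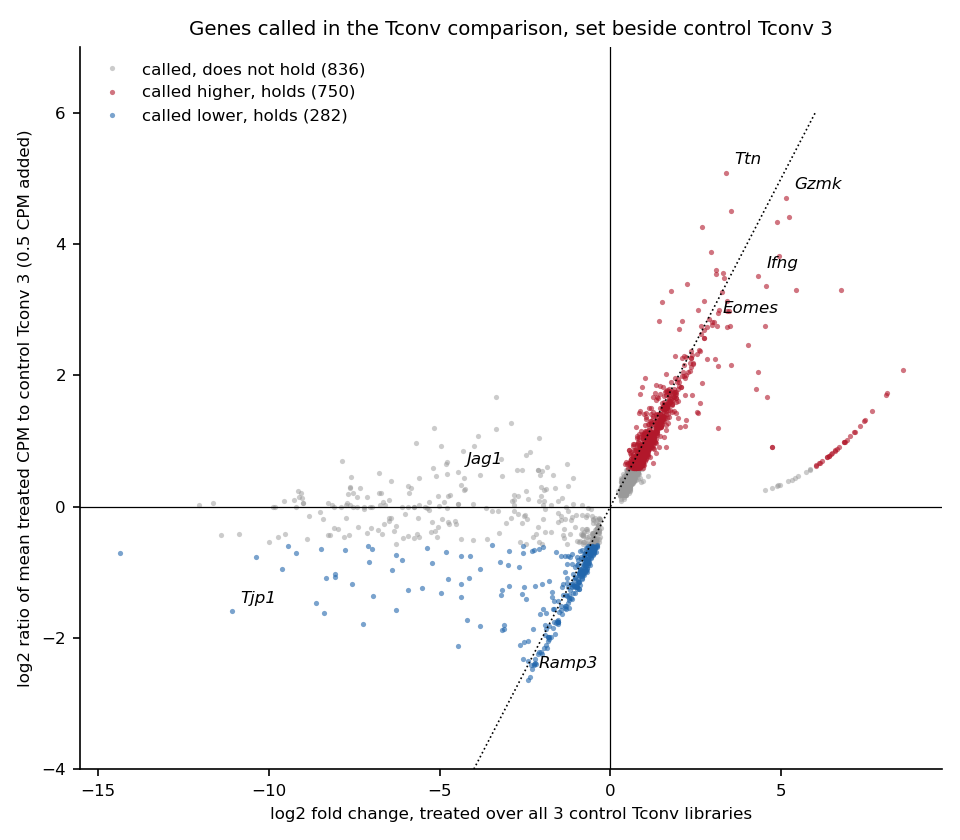
The 1868 genes called in the Tconv comparison, with the log2FC over all 3 control libraries on the x axis and the log2 ratio of the mean treated CPM to control library 3 on the y axis. Points on the dotted line have the same change by both measures. The 836 grey genes do not hold, and the grey and blue points that run left along the horizontal line are genes raised in control libraries 1 and 2, such as Tjp1 and Jag1.

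Cytosolic chaperones, which hold and refold unfolded proteins, were among the abundant genes with the largest log2FC. Of 29 tested members of the heat shock list, 17 rose and 0 fell, 14 of the 17 held, and the list's median log2FC was 0.59. Summed over the list, expression was 24164, 23756 and 22753 CPM in treated libraries, against 6464, 6377 and 7121 CPM in control libraries. The promoters of 3 of its leading genes are shown for the heat shock element, the site that heat shock factors bind. Hspa1a and Hspa1b encode the inducible HSP70, and Hsph1 encodes HSP110, a nucleotide exchange factor that works with HSP70. The sequences are the 250 bases before the annotated start on the minus strand (RefSeq, GRCm38.p6), and capitals mark matches to GAANNTTC or TTCNNGAA, 2 units of the heat shock element in inverted order, each of which reads the same on both strands.
Hspa1b, chr17:34959239-34959488: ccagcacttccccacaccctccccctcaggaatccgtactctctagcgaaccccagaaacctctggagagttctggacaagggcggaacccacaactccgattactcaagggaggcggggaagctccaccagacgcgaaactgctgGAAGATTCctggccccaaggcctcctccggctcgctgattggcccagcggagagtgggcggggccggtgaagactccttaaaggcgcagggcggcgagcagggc
Hspa1a, chr17:34972157-34972406: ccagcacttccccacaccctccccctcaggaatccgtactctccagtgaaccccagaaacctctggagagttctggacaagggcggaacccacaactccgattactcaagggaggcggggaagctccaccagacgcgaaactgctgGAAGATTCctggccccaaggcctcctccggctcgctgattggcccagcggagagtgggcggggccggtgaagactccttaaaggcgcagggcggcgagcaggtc
Hsph1, chr5:149636337-149636586: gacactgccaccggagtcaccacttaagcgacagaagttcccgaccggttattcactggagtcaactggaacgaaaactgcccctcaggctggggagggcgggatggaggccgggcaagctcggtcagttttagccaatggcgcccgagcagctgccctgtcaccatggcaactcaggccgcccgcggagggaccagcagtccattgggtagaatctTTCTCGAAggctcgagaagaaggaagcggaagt
The windows of Hspa1a and Hspa1b differed at 3 of 250 bases, and in both the match began 104 bases before the start. In Hsph1 it began 33 bases before the start. Either motif was present in such a window of 8 of the 14 heat shock genes that rose and have a promoter entry (57.1%) and of 3 of 9 that were not called, against 12.2% of 11935 tested genes. A match describes the letters only.

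Hspa1b (ENSMUSG00000090877.3, chromosome 17, 34956436 to 34959238) was at 4534, 4323 and 4118 CPM in treated libraries, against 452, 445 and 540.5 CPM in control libraries (log2FC 3.17 ± 0.13, adjusted p = 8.6e-13). All treated values lay above all control values, and control library 3 sat with the other controls. Hspa1a was at 3504, 3288 and 3232 CPM in treated and 489.6, 459 and 565 CPM in control libraries (log2FC 2.73 ± 0.18, adjusted p = 3.6e-10), but the coding parts of the pair are so alike that reads can be assigned to either. Hsph1 had 1016, 1045 and 1058 CPM in treated and 125, 123 and 147 CPM in control libraries (log2FC 2.98 ± 0.22, adjusted p = 1.8e-09). Dnajb1, an HSP40 partner that hands clients to HSP70, was at 1657, 1497 and 1529.9 CPM in treated and 237, 217 and 301 CPM in control libraries (log2FC 2.64 ± 0.14, adjusted p = 2.1e-11). The groups stood apart for both. Hspa8, the cognate HSC70, had log2FC 1.68 ± 0.09, adjusted p = 2.1e-11, and Hsp90aa1, an HSP90 chaperone, had log2FC 1.65 ± 0.09, adjusted p = 4.4e-11. In the ER chaperone and unfolded protein response list, 8 of 27 members rose and 3 fell, with a median log2FC of 0.22. Hspa5, the ER chaperone BiP, had log2FC 1.01 ± 0.08, adjusted p = 3.8e-09, while Eif2ak3, the PERK sensor kinase, had log2FC -0.82 ± 0.13, adjusted p = 0.00014. Proteasome subunits stayed closer to the background, with 4 of 36 higher and 1 lower, and none of the 4 held.

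**Figure D3:**
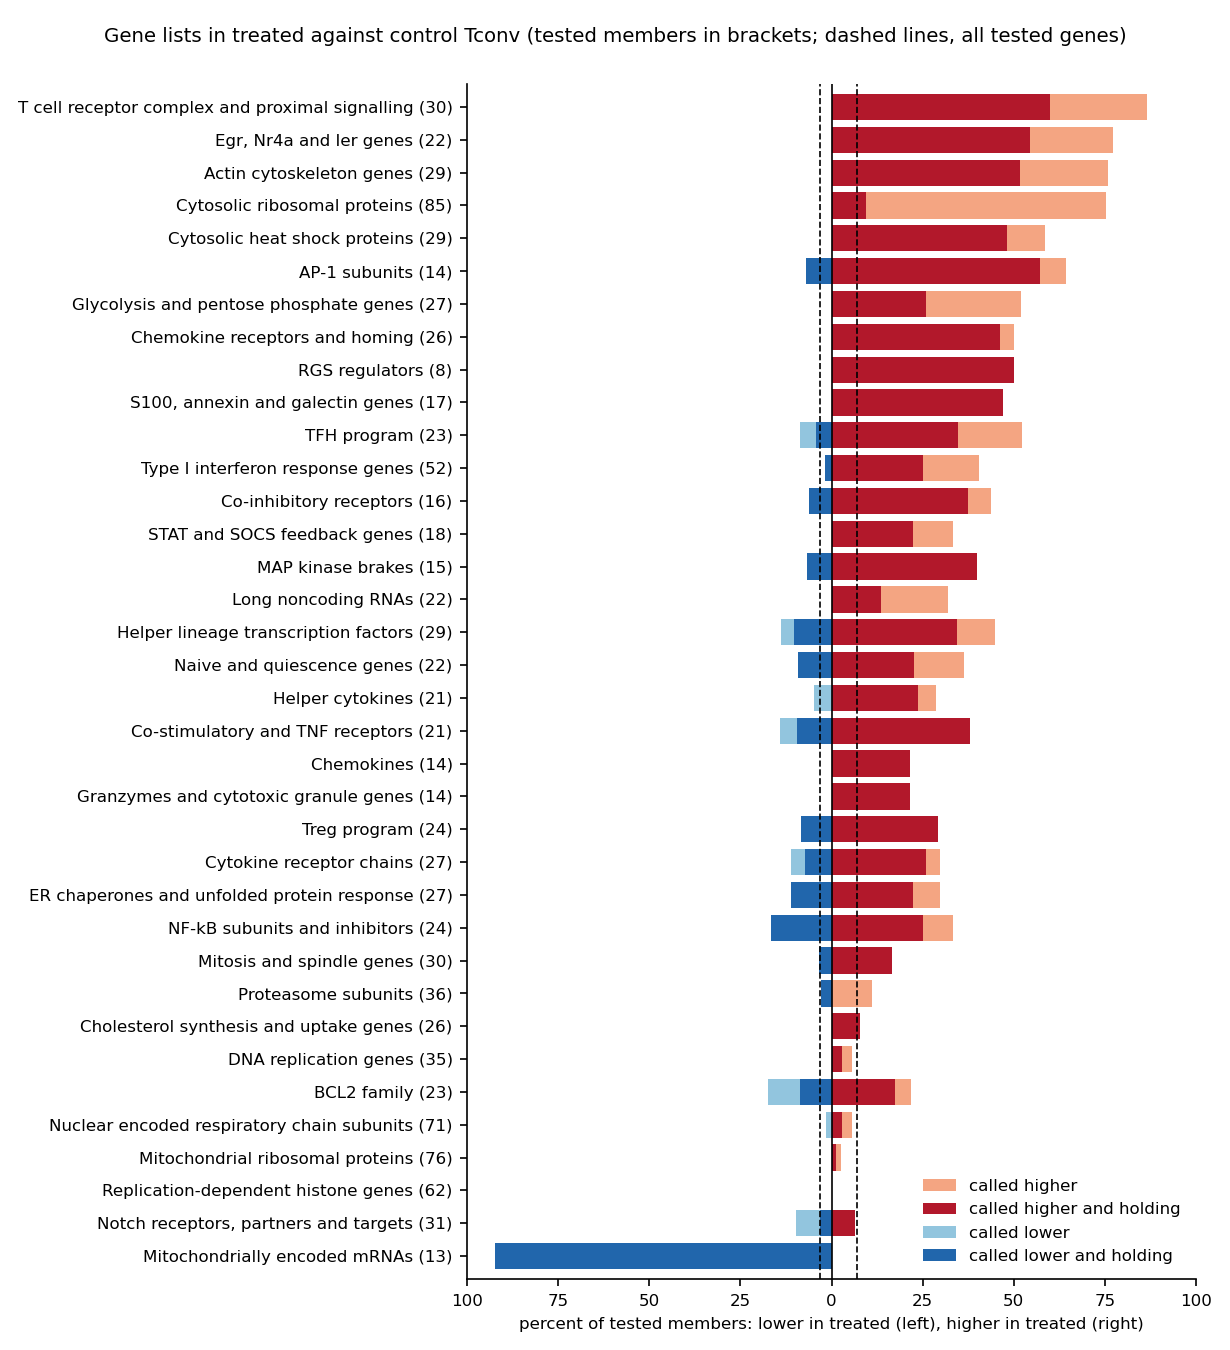
Share of tested members called higher (right) or lower (left) in treated Tconv cells for 36 gene lists, with darker bars for members that hold against control library 3, tested members in brackets and dashed lines at the shares of all tested genes (6.89% higher, 3.05% lower). T cell receptor signalling genes have the highest share above 0, and mitochondrially encoded mRNAs the highest share below 0.

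Immediate early genes are those that T cells switch on within minutes of stimulation. Of 14 AP-1 subunits 9 rose and 1 fell, with a median log2FC of 1.42. Jun was at 4382, 4029 and 3821 CPM in treated libraries, against 883, 824 and 1022 CPM in control libraries (log2FC 2.16 ± 0.13, adjusted p = 1.0e-10). Jund had 1070.5, 1001 and 1016 CPM in treated and 304, 304 and 386 CPM in control libraries (log2FC 1.64 ± 0.12, adjusted p = 3.0e-09). The subunit that fell was Fosl2, with 184, 193 and 193 CPM in treated libraries and 372, 377 and 474 CPM in control libraries (log2FC -1.10 ± 0.12, adjusted p = 5.6e-07). Groups were apart for all of these, in opposite directions. In the list of Egr, Nr4a and Ier genes 17 of 22 rose, 12 of them holding, and 0 fell. Zfp36, an RNA-binding protein that shortens the life of cytokine mRNAs, was at 1559.5, 1587 and 1549 CPM in treated and 289, 293 and 327 CPM in control libraries (log2FC 2.37 ± 0.14, adjusted p = 1.2e-10). Nr4a1, an orphan nuclear receptor induced by T cell receptor signals, had 839, 817 and 789 CPM in treated and 155, 169.8 and 204 CPM in control libraries (log2FC 2.21 ± 0.15, adjusted p = 8.1e-10). Neither gene overlapped between groups.

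Several brakes on signalling rose too. RGS proteins speed up the shut-off of G proteins behind chemokine receptors, and 4 of 8 rose. Rgs1 was at 279, 317 and 282 CPM in treated and 88, 88.4 and 103 CPM in control libraries (log2FC 1.65 ± 0.12, adjusted p = 3.5e-09), and Rgs16 at 37, 33.1 and 27.9 CPM in treated and 9.98, 6.96 and 8.18 CPM in control libraries (log2FC 1.97 ± 0.13, adjusted p = 8.1e-10). Both groups were tight and apart. Among MAP kinase brakes 6 of 15 rose and 1 fell, although the list's median log2FC was -0.07. The NF-kB list split: 8 of 24 members rose and 4 fell. Those that rose include the inhibitors Nfkbia (IkB-alpha), at 2087, 1971 and 1966 CPM in treated and 855, 799.9 and 1013 CPM in control libraries (log2FC 1.18 ± 0.08, adjusted p = 1.4e-09), and Tnfaip3 (A20), at 6879, 6614 and 6873 CPM in treated and 3017, 2930.5 and 3742 CPM in control libraries (log2FC 1.07 ± 0.09, adjusted p = 2.3e-08). Those that fell include Map3k14, the NIK kinase of the non-canonical pathway, at 96.3, 88.3 and 92.8 CPM in treated and 169, 153 and 206 CPM in control libraries (log2FC -0.93 ± 0.12, adjusted p = 1.5e-05). Relb, a subunit of the same pathway, fell with it (log2FC -0.79 ± 0.16, adjusted p = 0.0014). Every control value of Map3k14 lay above the treated ones.

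Effector genes formed the next group. Among 29 transcription factors of helper lineages 13 rose and 4 fell. Eomes (ENSMUSG00000032446.14, chromosome 9, 118478212 to 118486132), a T-box factor of cytotoxic and memory-like T cells, was at 64.4, 70.3 and 67.8 CPM in treated and 7.63, 7.89 and 9.16 CPM in control libraries (log2FC 3.03 ± 0.29, adjusted p = 1.2e-07). Bhlhe40, a factor that favours cytokine production in helper cells, had 196, 203 and 203 CPM in treated and 51.5, 48.1 and 41.5 CPM in control libraries (log2FC 2.10 ± 0.13, adjusted p = 1.4e-10). Runx2 had 16, 17.9 and 17.4 CPM in treated and 4.25, 5.71 and 4.69 CPM in control libraries (log2FC 1.81 ± 0.18, adjusted p = 2.3e-07). For all 3 genes the lowest treated value was more than 2 times the highest control value. Master factors of classical lineages were also measured. Tbx21 (Th1) was at 5.32, 3.56 and 4.29 CPM in treated and 1.55, 1.43 and 0.951 CPM in control libraries, which did not pass the test (log2FC 1.74 ± 0.58, adjusted p = 0.061). Gata3 (Th2) was not called either (log2FC 0.34 ± 0.14, adjusted p = 0.13). Bcl6, the factor of follicular helper cells, fell (log2FC -0.60 ± 0.12, adjusted p = 0.0014).

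Of 21 tested helper cytokines 6 rose and 1 fell, and 5 of the 6 held. Il10, the regulatory cytokine, was at 8.26, 9.13 and 7.94 CPM in treated libraries, against 2.19, 2.25 and 1.33 CPM in control libraries (log2FC 2.14 ± 0.26, adjusted p = 3.8e-06). Il21, the cytokine that drives B cell help, had 7.56, 6.49 and 5.99 CPM in treated and 1.15, 0.963 and 1.71 CPM in control libraries (log2FC 2.38 ± 0.35, adjusted p = 4.2e-05), a call that did not pass without the kidney libraries (log2FC 1.97, adjusted p = 0.10). Both cytokines were low yet separate between groups. Il2 was at 1.99, 2.31 and 1.61 CPM in treated and 1.23, 0.178 and 0.158 CPM in control libraries (log2FC 1.91 ± 1.27, adjusted p = 0.40), and Il17a was close to 0 everywhere, with 0.176, 0 and 0 CPM in treated and 0, 0 and 0 CPM in control libraries. Neither was called. The one cytokine called lower, Spp1 (osteopontin), did not hold, with 0.453, 0.386 and 0.39 CPM in treated and 4.77, 6.57 and 0.697 CPM in control libraries. Granule genes were called in 3 of 14 cases, all higher, among them Nkg7, a granule membrane protein, at 6.05, 7.89 and 8.8 CPM in treated and 0, 1.28 and 0.697 CPM in control libraries (log2FC 3.50 ± 0.71, adjusted p = 0.0021).

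Helper cells act on other cells through ligands of the TNF family, among other signals. In the list of costimulatory and TNF family genes, 8 of 21 rose and 3 fell, with ligands in both directions. Tnfsf8 (ENSMUSG00000028362.2, chromosome 4, 63831308 to 63861347), the CD30 ligand, was at 88.5, 99.4 and 96.5 CPM in treated and 18.7, 24.3 and 22.6 CPM in control libraries (log2FC 2.12 ± 0.11, adjusted p = 2.9e-11). Tnfsf11, known as RANKL, had 30.5, 37.3 and 33.3 CPM in treated and 3.66, 3.82 and 3.04 CPM in control libraries (log2FC 3.26 ± 0.27, adjusted p = 1.8e-08). Cd40lg, through which helper cells license B cells, had 141, 152 and 146 CPM in treated and 35.1, 31.3 and 36.6 CPM in control libraries (log2FC 2.09 ± 0.20, adjusted p = 1.6e-07). All 3 ligands were several times higher in each treated library than in any control library. The receptor Tnfrsf18 (GITR) fell (log2FC -1.15 ± 0.14, adjusted p = 3.7e-06), with the values given above for the sorted cells.

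Genes of the 2 pathways that the treatment addresses were called in both directions or not at all. Tnfrsf4, which encodes OX40 itself, was at 31.5, 30.1 and 30.7 CPM in treated and 30.2, 24.6 and 27.7 CPM in control libraries and was not called (log2FC 0.16 ± 0.14, adjusted p = 0.54). Tnfsf4, its ligand, was scarce at 1.61, 1.28 and 1.7 CPM in treated and 3.9, 5.67 and 4.98 CPM in control libraries (log2FC -1.66 ± 0.39, adjusted p = 0.0072), a fall that did not pass without the kidney libraries (log2FC -1.69, adjusted p = 0.17). In the Notch list 2 of 31 members rose and 3 fell, 2 and 1 of them holding, with a median log2FC of -0.10. The share that rose was near the 6.89% of all tested genes, and the share that fell was above the 3.05%. Dtx1, a Notch target and ubiquitin ligase, was at 214, 191 and 196 CPM in treated libraries, against 45.7, 42.4 and 56.1 CPM in control libraries (log2FC 2.06 ± 0.61, adjusted p = 0.033), several times higher in each treated library. Its call did not pass with DESeq2 (adjusted p = 0.0849). It also fell short after leaving out any 1 of the 6 Tconv libraries (adjusted p 0.0531 to 0.122). The call did pass when edgeR was fitted to the 6 Tconv libraries only (adjusted p = 2.0e-05). Without the kidney libraries, which leaves 1 control Tconv library, the log2FC of Dtx1 was 1.84. Notch1 had 328, 317 and 327 CPM in treated and 263, 246 and 202 CPM in control libraries (log2FC 0.45 ± 0.14, adjusted p = 0.040), and relative log expression scaling ended that call (log2FC 0.34, adjusted p = 0.12). Notch2 was not called (log2FC -0.02 ± 0.13, adjusted p = 0.96). Hes1 and Notch3 were not called, with 0.932, 0.593 and 0.557 CPM of Hes1 in treated and 12.8, 12.1 and 0.412 CPM in control libraries. Jag1 and Dll1, Notch ligands of non-lymphoid cells, were called lower, Jag1 on 0.781, 0.474 and 0.362 CPM in treated and 17.8, 18 and 0.222 CPM in control libraries and Dll1 on 0.302, 0.148 and 0.557 CPM in treated and 6.68, 6.64 and 1.11 CPM in control libraries. Without the kidney libraries the log2FC of Jag1 turned to 1.27 (adjusted p = 1.0), and Hes1, Jag1 and Dll1 are high in the same control libraries 1 and 2 as the kidney markers.

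**Figure D4:**
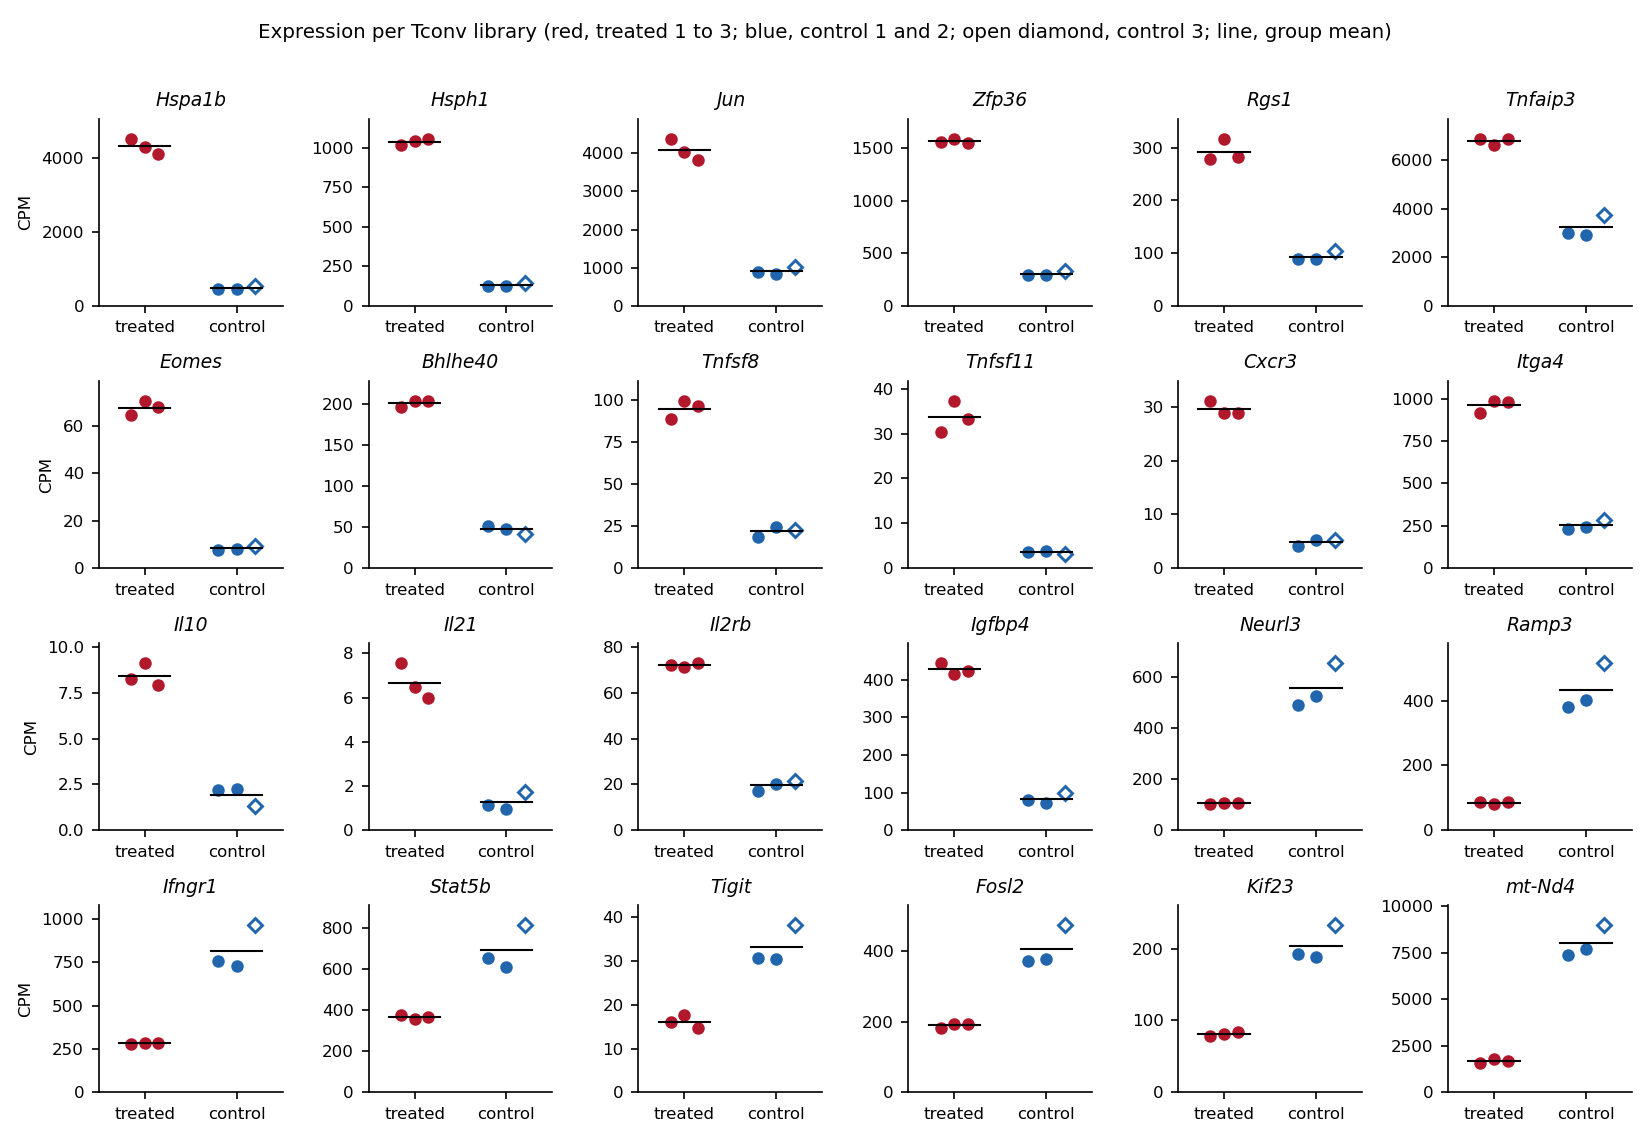
CPM of 24 genes in each Tconv library (linear axes from 0), with treated libraries in red at the left, control libraries 1 and 2 as blue points, control library 3 as an open diamond and group means as lines. The first 16 genes lie higher and the last 8 lower in all 3 treated libraries than in any control library.

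Chemokine receptors and adhesion molecules bring T cells to tissue. Of 26 such genes 13 rose, 12 of them holding, 0 fell and 13 were not called, with a median log2FC of 1.05. Cxcr3, the receptor for interferon-induced chemokines, was at 31.2, 29 and 29 CPM in treated and 4.13, 5.25 and 5.32 CPM in control libraries (log2FC 2.60 ± 0.13, adjusted p = 1.2e-11). Itga4, the alpha4 integrin chain, had 916, 987 and 979 CPM in treated and 228, 242 and 286 CPM in control libraries (log2FC 1.93 ± 0.11, adjusted p = 5.3e-11). No treated value of these genes came near a control value. Cxcr5, the receptor used to exclude follicular cells in the sort, was low in both groups but higher after treatment, at 14.5, 16 and 16.3 CPM in treated and 2.5, 2.18 and 0.824 CPM in control libraries (log2FC 3.10 ± 0.26, adjusted p = 2.3e-08). Pdcd1 had 9.8, 10.5 and 8.52 CPM in treated and 4.41, 3.82 and 7.29 CPM in control libraries (log2FC 0.89 ± 0.17, adjusted p = 0.0010) and did not hold. Among 23 genes of the follicular helper program 12 rose and 2 fell, with a median log2FC of 0.49.

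Genes of the T cell receptor and its first signalling steps had the largest share called higher of the 36 lists. Of 30 members 26 rose, 18 of them holding, and 0 fell, with a median log2FC of 0.86 over all 3 controls. Control libraries 1 and 2 were lower in T cell markers than control library 3. Thy1, a surface marker of T cells, was at 602, 565 and 533 CPM in treated and 164, 150.2 and 183 CPM in control libraries (log2FC 1.78 ± 0.13, adjusted p = 1.3e-09). Themis, an adaptor of T cell receptor signalling, had 363, 412 and 415 CPM in treated and 101, 99.2 and 121 CPM in control libraries (log2FC 1.89 ± 0.15, adjusted p = 5.5e-09). Over control library 3 alone the ratio of treated means was 3.10 for Thy1 and 3.26 for Themis. Inhibitory receptors rose in 7 of 16 cases. Nt5e, the ectoenzyme CD73 that makes adenosine, was at 27.4, 28.8 and 29.2 CPM in treated and 9.7, 11 and 9.19 CPM in control libraries (log2FC 1.51 ± 0.12, adjusted p = 4.5e-09). Tigit went the other way, at 16, 17.7 and 14.7 CPM in treated and 30.8, 30.4 and 38.2 CPM in control libraries (log2FC -1.04 ± 0.13, adjusted p = 8.7e-06), and was the only inhibitory receptor of the list called lower. Of 24 Treg program genes 7 rose and 2 fell, Foxp3 among those that rose (log2FC 1.04 ± 0.20, adjusted p = 0.0012).

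Genes of the resting state did not move as 1 block. Of 22 naive and quiescence genes 8 rose and 2 fell, 5 and 2 of them holding, with a median log2FC of 0.12. Against control library 3 alone the list's median log2 ratio was -0.08. Klf2, which holds T cells quiescent and lets them leave lymph nodes, was at 1138, 1112 and 1236 CPM in treated and 272, 274 and 324 CPM in control libraries (log2FC 2.00 ± 0.13, adjusted p = 2.9e-10). Igfbp4, a growth factor binding protein of naive CD4 cells, had 444, 416 and 424 CPM in treated and 80.6, 72.4 and 98.2 CPM in control libraries (log2FC 2.35 ± 0.23, adjusted p = 1.4e-06). Bach2 and Satb1, nuclear factors that restrain effector genes or order T cell chromatin, fell (log2FC -0.83 ± 0.15, adjusted p = 0.00042 for Bach2 and log2FC -0.47 ± 0.09, adjusted p = 0.0014 for Satb1). In the BCL2 family 5 of 23 rose and 4 fell. Pmaip1, the death-promoting protein NOXA, was at 25.7, 26.7 and 27.5 CPM in treated and 3.18, 2.82 and 1.93 CPM in control libraries (log2FC 3.34 ± 0.21, adjusted p = 2.9e-10), while Bcl2l11, the death-promoting protein BIM, had 115, 118 and 128 CPM in treated and 186, 201 and 259 CPM in control libraries (log2FC -0.83 ± 0.18, adjusted p = 0.0024). The groups were apart for both, in opposite directions.

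Cytokine receptors and their STAT factors also split. Il2rb, the beta chain of the IL-2 and IL-15 receptors, was at 72.2, 71.2 and 73.1 CPM in treated and 17.4, 20.4 and 21.5 CPM in control libraries (log2FC 1.87 ± 0.13, adjusted p = 6.5e-10). Ifngr1 (ENSMUSG00000020009.12, chromosome 10, 19591949 to 19610229), the ligand-binding chain of the interferon gamma receptor, was at 281, 285 and 282 CPM in treated libraries, against 754, 728 and 961 CPM in control libraries (log2FC -1.53 ± 0.11, adjusted p = 3.0e-09). Stat5b, which carries IL-2 signals, had 375, 358 and 365 CPM in treated and 655, 609.8 and 814 CPM in control libraries (log2FC -0.92 ± 0.10, adjusted p = 1.1e-06), and its neighbour Stat5a fell likewise (log2FC -1.04 ± 0.14, adjusted p = 1.0e-05). In each of these 3 genes that fell, control library 3 had the highest value. Across the list of cytokine receptor chains 8 of 27 rose and 3 fell. In the STAT and SOCS list, which does not hold Stat5a and Stat5b, 6 of 18 genes rose and 0 fell. Socs3 was among those that rose (log2FC 1.41 ± 0.13, adjusted p = 4.8e-08).

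Genes of cell shape and movement rose broadly. Of 29 actin cytoskeleton genes 22 rose, 15 of them holding, and 0 fell, with a median log2FC of 0.71. Actb was at 8682, 8078 and 8312 CPM in treated and 2886, 2774 and 2765 CPM in control libraries (log2FC 1.57 ± 0.07, adjusted p = 2.7e-12). Vim, the intermediate filament protein, had 633, 598 and 574 CPM in treated and 226, 215 and 148 CPM in control libraries (log2FC 1.61 ± 0.14, adjusted p = 4.6e-08), with control library 3 the lowest. Of 17 S100, annexin and galectin genes 8 rose and all 8 held. Lgals1, the sugar-binding galectin-1, was at 63.4, 57.7 and 57.9 CPM in treated and 20.3, 17.4 and 16.9 CPM in control libraries (log2FC 1.71 ± 0.28, adjusted p = 0.00021). Large proteins linked to muscle and motility were among the genes with the largest log2FC. Ttn, titin, was at 295, 279 and 305 CPM in treated and 35.7, 41.4 and 8.14 CPM in control libraries (log2FC 3.37 ± 0.33, adjusted p = 1.7e-07), and Myo1f, a myosin of blood cells, at 46.4, 36.7 and 42 CPM in treated and 6.12, 7.89 and 2.38 CPM in control libraries (log2FC 2.94 ± 0.34, adjusted p = 2.7e-06). Other genes with a large log2FC were Adam19, a membrane metalloprotease (log2FC 3.09 ± 0.20, adjusted p = 4.9e-10), Casp4, an inflammatory caspase (log2FC 2.90 ± 0.18, adjusted p = 2.3e-10), Slamf7, a receptor of the SLAM family (log2FC 3.05 ± 0.41, adjusted p = 1.6e-05), Esm1, a secreted proteoglycan (log2FC 3.54 ± 0.75, adjusted p = 0.0026), and Plek, pleckstrin (log2FC 2.75 ± 0.32, adjusted p = 2.6e-06).

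Genes of metabolism and protein synthesis gave calls of which many did not hold. In glycolysis and the pentose phosphate pathway 14 of 27 genes rose and 0 fell, but 7 of the 14 held. Pfkp, a phosphofructokinase, had log2FC 0.88 ± 0.12, adjusted p = 1.8e-05, and Tpi1, triose phosphate isomerase, log2FC 1.58 ± 0.25, adjusted p = 0.00010. Of 26 cholesterol genes 2 rose, a share near the 6.89% of all tested genes. Of 14 chemokine genes 3 rose, and of 22 long noncoding RNAs 7 rose, 3 of them holding, shares above that background. Cytosolic ribosomal protein genes were called higher in 64 of 85 cases with a median log2FC of 0.56, yet 8 of the 64 held. Summed, they were at 99219.8, 93731 and 92618 CPM in treated libraries, against 62568, 61239 and 75054 CPM in control libraries, so control library 3 lies between the other controls and the treated libraries. Rpl3 was at 2146, 2017 and 1953 CPM in treated and 1094, 1032 and 1262 CPM in control libraries (log2FC 0.85 ± 0.09, adjusted p = 5.6e-07). Mitochondrial ribosomal proteins (2 of 76 higher) and nuclear-encoded subunits of the respiratory chain (4 of 71 higher, 1 lower) stayed near or below the background.

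Mitochondrially encoded mRNAs, by contrast, fell in 12 of 13 cases, all 12 holding, with a median log2FC of -2.02. Summed, they were at 25359, 29381 and 26461 CPM in treated libraries, against 93229.5, 98678 and 119278 CPM in control libraries. mt-Nd4, a subunit of complex I, was at 1575, 1801 and 1705 CPM in treated and 7378, 7683 and 8969 CPM in control libraries (log2FC -2.24 ± 0.10, adjusted p = 2.6e-12). mt-Cytb, the cytochrome b of complex III, had 6582, 7097 and 6347 CPM in treated and 20035, 20010 and 24046 CPM in control libraries (log2FC -1.68 ± 0.09, adjusted p = 2.9e-11). All treated values lay below all control values, and control library 3 was the highest. Near-identical copies of mitochondrial genes lie in the nuclear genome, so counts of single mitochondrial genes are uncertain, more so for mt-Co2, mt-Co3 and mt-Atp6, whose highest value was 105 CPM, of mt-Atp6 in control library 3.

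Interferon response genes were higher in part. Of 52 members 21 rose, 13 of them holding, and 1 fell, with a median log2FC of 0.80. Ifi203, a nuclear DNA sensor family member, was at 234, 254 and 240.3 CPM in treated and 75.7, 78.4 and 101 CPM in control libraries (log2FC 1.51 ± 0.14, adjusted p = 1.2e-07). Ly6a, the surface protein Sca-1, had 99.2, 98.8 and 104 CPM in treated and 22.1, 21.4 and 32.8 CPM in control libraries (log2FC 1.98 ± 0.27, adjusted p = 1.9e-05). Groups did not overlap for either gene. Without the kidney libraries 4 members of the list were called higher and 1 lower. Transcripts of immunoglobulins were also higher in treated libraries. Igkc, the kappa light chain constant region, was at 135, 122 and 118 CPM in treated and 20.3, 19.4 and 24.6 CPM in control libraries (log2FC 2.54 ± 0.16, adjusted p = 2.3e-10), Ighm, the IgM heavy chain, at 281, 260.3 and 267 CPM in treated and 79.7, 85 and 91.1 CPM in control libraries (log2FC 1.66 ± 0.11, adjusted p = 9.4e-10), and Jchain at 28.9, 32.2 and 32.3 CPM in treated and 5.25, 6.74 and 6.12 CPM in control libraries (log2FC 2.37 ± 0.25, adjusted p = 6.4e-07). Of 19 tested B cell markers Ighm alone was called. The 14 plasma cell markers summed to 467, 453 and 452 CPM in treated and 257, 255 and 302 CPM in control libraries, and their part in other results was not tested.

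Proliferation genes were called unevenly. Of 30 mitosis and spindle genes 5 rose and 1 fell, all of them holding, with a median log2FC of 0.93. The share that rose lay above the 6.89% of all tested genes, and the share that fell lay near the 3.05%. Top2a, the topoisomerase of dividing cells, was at 45.7, 49.6 and 44.2 CPM in treated and 14.9, 15.2 and 15.6 CPM in control libraries (log2FC 1.61 ± 0.10, adjusted p = 1.0e-10). Kif23, a kinesin of cytokinesis, had 78.8, 81 and 83.7 CPM in treated and 192, 188 and 232 CPM in control libraries (log2FC -1.33 ± 0.14, adjusted p = 5.5e-07). That pair moved in opposite directions, with no overlap between groups. Of 35 DNA replication genes 2 rose, a share near the 6.89% of all tested genes. Of 62 replication-dependent histone genes 0 were called in either direction, with 5 at an unadjusted p under 0.05. DESeq2 called 2 of the histone genes lower, and limma voom called 12 higher and 2 lower.

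Genes lower in treated Tconv cells at control levels of 10 CPM or more had a median log2FC of -0.93 over the set of 210, and 120 of them were also called without the kidney libraries. Neurl3 (ENSMUSG00000047180.8, chromosome 1, 36264597 to 36274679), a ubiquitin ligase of the Neuralized family, was at 101, 106 and 108 CPM in treated libraries, against 492, 528 and 656 CPM in control libraries (log2FC -2.41 ± 0.10, adjusted p = 2.0e-12). Ramp3 (ENSMUSG00000041046.7, chromosome 11, 6658521 to 6677475), which pairs with calcitonin-type receptors to form adrenomedullin receptors, had 86.2, 82.3 and 86.6 CPM in treated and 379, 401 and 516 CPM in control libraries (log2FC -2.34 ± 0.12, adjusted p = 2.1e-11). Treated libraries were alike within a few CPM for both genes, and the highest control was library 3. Adk, the kinase that removes adenosine, was at 116, 114 and 118 CPM in treated and 380.1, 389 and 481 CPM in control libraries (log2FC -1.84 ± 0.12, adjusted p = 3.7e-10). Phlpp1, a phosphatase that switches off AKT, had 60.4, 54.2 and 57.4 CPM in treated and 173, 179 and 194 CPM in control libraries (log2FC -1.67 ± 0.10, adjusted p = 1.9e-10). Myb, a transcription factor of lymphocyte progenitors and memory cells, had 85.2, 88.5 and 82.2 CPM in treated and 230.3, 225 and 289.9 CPM in control libraries (log2FC -1.54 ± 0.14, adjusted p = 4.5e-08). All 3 genes were lower in each treated library than in any control library. Crem, a transcription factor of the cAMP response (log2FC -1.41 ± 0.14, adjusted p = 2.1e-07), Dgat1, which completes triglyceride synthesis (log2FC -1.54 ± 0.14, adjusted p = 5.6e-08), and Por, the electron donor of cytochrome P450 enzymes (log2FC -1.51 ± 0.21, adjusted p = 2.3e-05), also fell. Crem, Relb, Stat5a, Bach2 and Satb1 were named after their values were seen.

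The same treatment in Treg cells, the GITR-positive CXCR5-negative subset, gave a test of where Tconv cells differed. Treated Treg library 3 also holds kidney transcripts. The difference of effects, Tconv minus Treg, was above 0 for 338 genes (1.8%) and below 0 for 166 (0.883%). That balance turned with DESeq2, which gave 512 above and 946 below 0, without the low-count filter (318 and 905) and with the libraries of the compared groups only (1277 and 1880). Leaving out 1 library gave 47 to 621 below 0, the 621 without control Tconv library 3. Of the 166 genes 80 had control libraries 1 and 2 at 4 times control library 3 or more. A called Tconv effect that held was found for 148 of the 338 genes and 25 of the 166. In Treg cells the log2FC was below 0 for 231 of the 338. Of the 750 genes higher and holding in Tconv cells, 441 were also called higher in Treg cells. Tnfsf8 rose in Tconv cells and fell in Treg cells, where it was at 223 ± 3.45 CPM in treated and 422 ± 18.2 CPM in control libraries (SD, n = 3 each), with a difference of 3.03 ± 0.16 (adjusted p = 2.0e-10). Il10 was at 56.5 ± 2.41 CPM in treated and 100.3 ± 7.98 CPM in control Treg libraries (SD, n = 3 each), and the difference was 2.97 ± 0.34 (adjusted p = 1.9e-05). Both genes remained at higher levels in Treg than in Tconv libraries of either group. Ifng differed by 3.57 ± 0.35 (adjusted p = 2.0e-06), with log2FC 4.33 in Tconv and 0.76 in Treg cells. Cxcr3 had log2FC 2.60 in Tconv and 0.19 in Treg cells, a difference of 2.41 ± 0.17 (adjusted p = 5.9e-08). For Igfbp4 the difference was 2.84 ± 0.33 (adjusted p = 5.9e-05), on 6.79 ± 0.888 CPM in treated and 9.53 ± 2.26 CPM in control Treg libraries (SD, n = 3 each). Among heat shock genes, Dnajb1 differed by 0.93 ± 0.19 (adjusted p = 0.0066), while Hspa1b, with 0.54 ± 0.16 (adjusted p = 0.081), did not pass this test. Actb did not pass it either, with a difference of 0.13 ± 0.10 (adjusted p = 0.62).

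Called differences fell unevenly over the lists, whose medians were not tested. Ribosomal protein genes had a median log2FC of 0.56 in Tconv and 0.05 in Treg cells, and 28 of 85 had a difference above 0. Naive and quiescence genes had medians of 0.12 in Tconv and -0.39 in Treg cells, with 14 of 22 differences above 0. Against control library 3 alone, the median log2 ratio in Tconv cells was 0.39 for ribosomal protein genes and -0.08 for naive and quiescence genes. The differences of effects include control Tconv libraries 1 and 2 and treated Treg library 3, which hold kidney transcripts, and the part of these was not tested. In the other direction, histone genes had medians of 0.25 in Tconv and 1.53 in Treg cells, and 5 of 62 had a difference below 0. The linker histones Hist1h1d (-1.62 ± 0.15, adjusted p = 6.0e-07) and Hist1h1e (-1.14 ± 0.15, adjusted p = 7.1e-05) were among the 5, with Hist1h1d at 257 ± 23.4 CPM in treated and 103 ± 8.54 CPM in control Treg libraries (SD, n = 3 each), against 39.9, 36.7 and 35.6 CPM in treated and 44.9, 45.6 and 46.8 CPM in control Tconv libraries. Mitosis genes had medians of 0.93 in Tconv and 2.41 in Treg cells. Neurl3 had log2FC -2.41 in Tconv and -2.25 in Treg cells, with a difference of -0.16 ± 0.14 (adjusted p = 0.70).

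**Figure D5:**
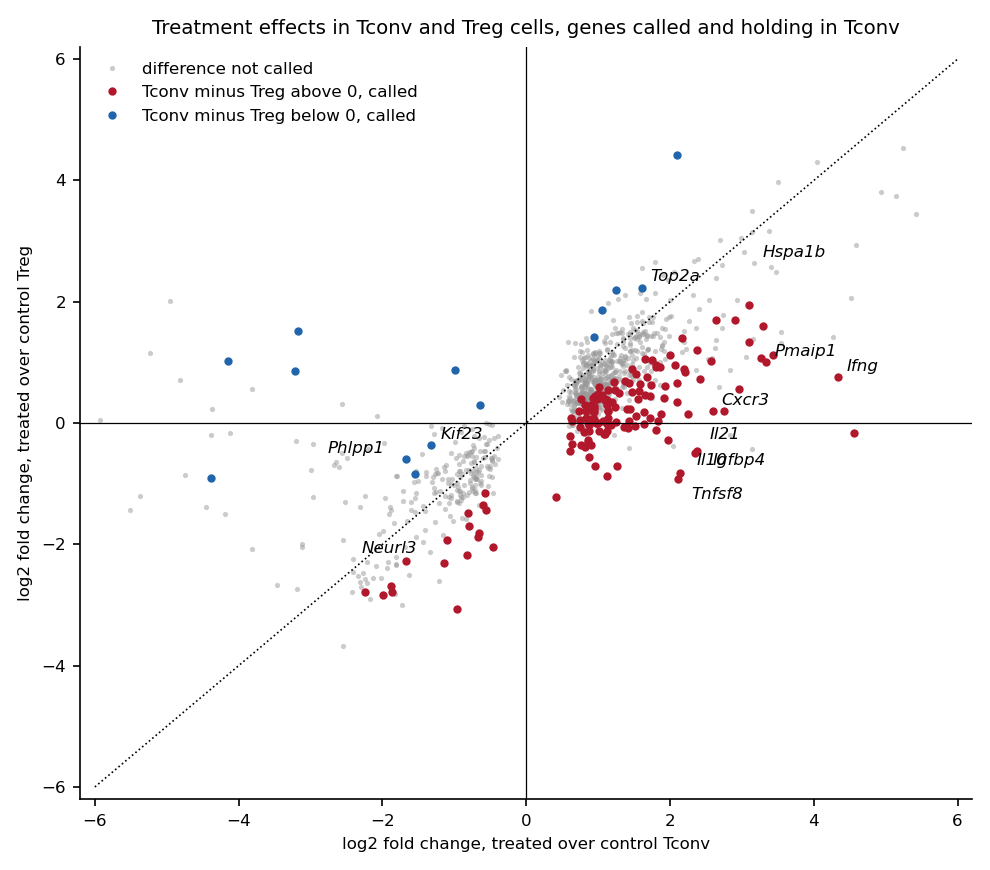
Log2FC in Tconv cells (x axis) and in Treg cells (y axis) for 979 genes that are called and hold in Tconv cells, with 53 genes of log2FC over 6 in size left out and 5 outside the axes. Red points mark 146 genes with a called difference above 0 and blue points 14 with one below 0. Tnfsf8, Il10, Il21 and Igfbp4 lie to the right of 0 in Tconv and below 0 in Treg cells, and Hspa1b and Neurl3 lie near the dotted line of equal effects.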

How the data were processed

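The authors deposited 1 table of raw counts per gene for 24 libraries. Reads were aligned and counted with STAR and featureCounts on mm10, per the submitters' processing notes; the sources used here give neither versions nor the strand setting. Gene symbols and positions came from GENCODE M21, which matched 38872 of 39056 IDs. Counts were scaled by TMM and tested with edgeR 4.0.16 (R 4.3.3), as a quasi-likelihood F test on 8 group means over all 24 libraries after edgeR's low-count filter, two-sided, with Benjamini-Hochberg adjustment over all tested genes at 0.05. The SE was derived from the log2FC and the F value. The spread behind SE and p-values was shared over all groups. Its common coefficient of variation was 0.617 over all 24 libraries, against 0.072 in treated and 0.296 in control Tconv libraries taken alone. DESeq2 1.42.0 and limma 3.58.1 (voom) were alternatives. The members and lists were chosen with earlier results of these data known. Genes were named from among the 20 largest that held in each direction, up to 6 members per list, up to 6 lower genes that did not hold and the 5 largest differences per direction. Counts of genes that overlap an antisense or neighbouring gene are uncertain. Many named genes have such an overlap, and Jun, Zfp36, Ramp3, Hspa1a, Eomes, Ifng, Cxcr5, Itga4, Bhlhe40, Il21 and Notch1 are only examples. In data simulated for the Tconv comparison, 18096 genes were tested, and changed genes were drawn from those at 10 CPM or more. Of the changed genes, 51 of 100 changed by 1 on the log2 scale and 87 of 100 changed by 2 were called. So were 9 of 17896 unchanged genes. All 3 libraries of a group shared 1 mean, so kidney RNA in control libraries 1 and 2 alone was not simulated. The simulation therefore does not cover genes raised in those 2 libraries. A few genes are not reported here.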

Additional observations from a re-analysis of the deposited data

Results flagged for a closer look

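The test of Tconv against Treg cells called 338 differences of effect above 0 and 166 below 0. A chosen 14 of these genes are given here, as the Tconv log2FC minus the Treg log2FC. Among cytokine, ligand and receptor genes the difference was 3.57 for Ifng, 3.03 for Tnfsf8, 2.97 for Il10, 2.85 for Il21, 2.41 for Cxcr3 and 2.19 for Tnfsf11. It was 2.84 for Igfbp4, 2.33 for Pmaip1 and 2.55 for Plek. It was below 0 for Phlpp1 (-1.07) and for Kif23 (-0.97), which both fell more in Tconv than in Treg cells, for the linker histones Hist1h1d (-1.62) and Hist1h1e (-1.14), and for Top2a (-0.62), which rose less in Tconv cells. Without the 5 libraries that hold kidney transcripts, the differences of Il21, Tnfsf11, Top2a and Kif23 no longer passed the test.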

How the results depend on the processing

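Counts of calls depended on the model, the filter and the libraries. Without a low-count filter 1246 genes were lower and 905 had a signed difference of effects, Tconv minus Treg, below 0. DESeq2 gave 1717 lower and 485 lower that held, with 512 differences above and 946 below 0. With limma voom 5375 were higher and 5125 lower, 1813 and 911 of them holding, with 3257 differences above and 3723 below 0. Fitting only the libraries of the groups compared gave 2537 higher and 3092 lower, 1475 and 931 holding, with 1277 differences above and 1880 below 0. Without the 5 kidney libraries 440 were higher and 136 lower, 401 and 122 holding, with 95 differences above and 13 below 0. Leaving out mitochondrial, haemoglobin and receptor genes gave 179 differences above 0. Asking for 2-fold against control library 3 left 347 higher and 149 lower. Leaving out 1 library at a time gave 886 to 1292 higher and 257 to 931 lower genes, 619 to 661 and 184 to 216 holding, and 188 to 542 differences above and 47 to 621 below 0. The 931 lower genes came without control library 3, when no call can be set against it, and each of the other 5 Tconv libraries left out gave 257 to 303. The cause of these shifts was not tested.

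Deviations from the group mean of same-numbered libraries had correlations of 0.0764, -0.0170 and -0.00868 for numbers 1, 2 and 3. In control libraries these deviations include the kidney transcripts of libraries 1 and 2, so the check cannot exclude pairing. A replicate block left 87 differences below 0, against 166. Over 101 named genes and all alternatives, 1421 of 1492 values kept their direction and call, 50 fell short of the threshold, 20 newly passed it, and that of Jag1 turned to 1.27 without the kidney libraries. At this depth, 30 of the 750 higher genes that held averaged under 1 CPM in treated libraries and rest on few reads.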
